A study of Mus musculus with 8 samples.

Results

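The motile cilia axoneme genes were a list of 48 named genes for the beating core of motile cilia, and the table of mouse heart mRNA held all 48 among 25929 genes. Ensembl identifiers gave 46 of them by their current symbol and 2 (Dnai1 and Dnai2) by a synonym. RNA-sequencing had been run on 8 heart libraries, from sham-operated (WT-Sham) and constricted (WT-TAC) wild type mice and from the fat-1 counterparts (Fat1-Sham and Fat1-TAC), 2 to a group. WT mice (strain label C57BL/6) and fat-1 littermates (strain label Fat-1), which carry an n-3 fatty acid desaturase gene of Caenorhabditis elegans and so convert n-6 into n-3 polyunsaturated fatty acids, were 3 months old at surgery. They were subjected to sham surgery or to 8 weeks of pressure overload by transverse aortic constriction (TAC), in which a suture narrows the aorta. The promoter of the transgene was not given in the sources used here. The labels name ventricular tissue while the methods name whole hearts. The labels call the 2 samples of a group independent without naming animals, so the p-values below measure the spread between these samples.

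Motile cilia beat by means of the axoneme, a ring of doublet microtubules around a central pair. Dynein arms on the doublets drive the sliding, radial spokes and the central pair control it, and nexin links and molecular rulers set where each part sits. Multiciliated cells, which the factors FOXJ1, RFX and multicilin drive, line the airways, the brain ventricles and the oviduct, whereas cells of the adult ventricle are known for a single primary cilium that does not beat.

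Library totals recovered from the deposited FPKM values (fragments scaled to transcript length and library total) ranged from 14163994 to 21218331 fragments. A value of 0 means that no fragment was found, which allows up to 3 fragments, or 0.141 to 0.212 CPM (fragments scaled to the library total), counting error only. Replicate libraries correlated across genes at 0.981 to 0.985 in 3 groups and at 0.898 in WT-TAC. WT-TAC1 stood apart through thymocyte genes, with Cd8b1 at 276 FPKM and Dntt at 267, against 0 to 0.0952 and 0 to 0.102 in the 6 libraries outside WT-TAC and 0.225 and 0.0265 in WT-TAC2. The 9 cardiomyocyte genes summed to 25719.6 and 47095 FPKM in WT-TAC1 and WT-TAC2 and to 51846 to 62351 elsewhere, so all 8 libraries held heart muscle mRNA. The medians of all 14442 genes tested lay at 0.39 on the log2(FPKM + 1) scale for WT-TAC against WT-Sham and at -0.40 for Fat1-TAC against WT-TAC, and values of the cilia genes are read against them. Scaling by the median of ratios moved these medians to -0.01 in both.

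Nearly the whole list stood higher in both pressure overload hearts of the wild type than in any other heart. Both WT-TAC libraries lay above the 6 others for 47 of the 48 genes, Dnai1 being the exception, whereas this order held for 33.3% of all 25929 genes. Both WT-TAC libraries lay above both WT-Sham libraries for all 48 genes (46.4% of all genes), and both Fat1-TAC libraries lay below both WT-TAC libraries for 47 (48.7% of all genes). More than 3 fragments were found for 48 and 47 of the genes in WT-TAC1 and WT-TAC2, against 18 and 23 in WT-Sham, 20 and 16 in Fat1-Sham, and 16 and 20 in Fat1-TAC. The median level of the 48 genes was 0.898 and 1.51 FPKM in WT-TAC, where the median of all genes was 2.61 and 1.58. In the 6 others the median of the 48 was 0.021 to 0.0819 FPKM and that of all genes 0.823 to 1.16. Summed over the list, 4481 and 4743 fragments were counted in WT-TAC and 829 to 1555 in the others. Scaled to the library total, these were 226 and 264.1 CPM in WT-TAC and 50.3 to 73.3 CPM in the others. In whole tissue, fewer cells of a type and less mRNA per cell cannot be told apart.

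**Figure D1:**
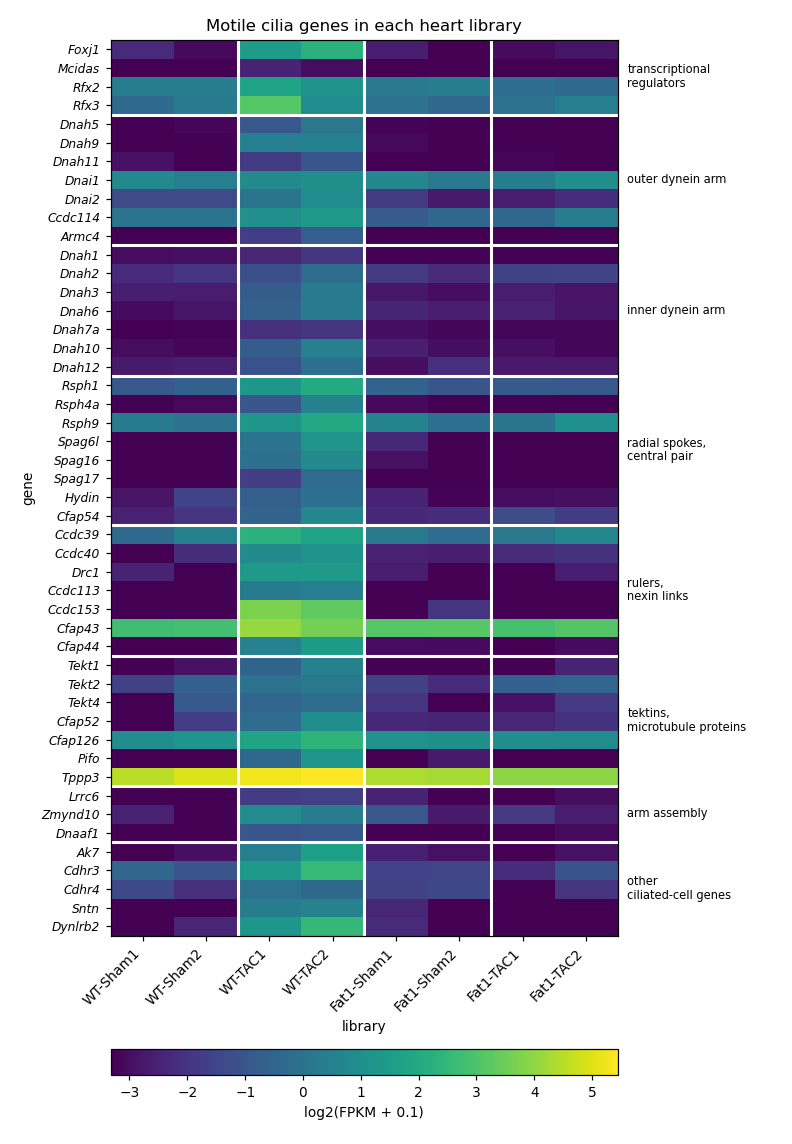
Level of each of the 48 motile cilia genes (rows, grouped by role) in each of the 8 libraries (columns), as log2(FPKM + 0.1) on the colour scale. Both WT-TAC columns are brighter than the other 6 for 47 genes, and Tppp3, Cfap43 and Cfap126 are bright in every library.

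The list split by its level outside WT-TAC. For 21 genes no library outside WT-TAC held more than 3 fragments: Mcidas, Dnah5, Dnah9, Dnah11, Armc4, Dnah7a, Rsph4a, Spag6l, Spag16, Spag17, Drc1, Ccdc113, Ccdc153, Cfap44, Tekt1, Pifo, Lrrc6, Dnaaf1, Ak7, Sntn and Dynlrb2. For 11 genes all 8 libraries held more: Rfx2, Rfx3, Dnai1, Ccdc114, Dnah2, Rsph1, Rsph9, Ccdc39, Cfap43, Cfap126 and Tppp3. The other 16 lay between. Below, a pair of values gives replicate 1 and then replicate 2 of a group, in FPKM, a level per length of transcript.

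Of the regulators, Foxj1, the forkhead factor that switches on motile cilia genes, stood at 0.108 and 0.018 FPKM in WT-Sham, 2.75 and 4.8 in WT-TAC, 0.0643 and 0 in Fat1-Sham, and 0.0204 and 0.042 in Fat1-TAC. Its fragments numbered 143 and 226 in WT-TAC and at most 4 in any other library, so the groups did not overlap. Rfx2, one of the factors that bind the X-box motif of ciliary genes, stood at 1.17 and 1.21 FPKM in WT-Sham, 3.33 and 2.15 in WT-TAC, 1.05 and 1.17 in Fat1-Sham, and 0.791 and 0.715 in Fat1-TAC. Rfx3, a related X-box factor, stood at 0.708 and 1.12 FPKM in WT-Sham, 8.62 and 1.81 in WT-TAC, 0.906 and 0.653 in Fat1-Sham, and 0.879 and 1.29 in Fat1-TAC, so that WT-TAC1 was far above WT-TAC2 and WT-TAC2 only just above the highest of the others. Both RFX genes were present in every heart. Mcidas, which encodes multicilin, the geminin relative that starts the making of many cilia in a cell, was listed at 0.0849 and 0.0234 FPKM in WT-TAC on 4 and 1 fragments and at 0 in the 6 others.

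The promoters of the list were read for the motifs of these factors, since Foxj1 and the RFX genes were measured in the same hearts. RefSeq windows (GRCm38.p6, 250 bases before to 50 after a start, on the gene's strand) were held for 39 of the 48 genes, and Cfap54, Armc4, Rsph4a, Dnaaf1, Rsph1, Foxj1, Lrrc6, Tppp3 and Dnah3 had none. The RFX half-site GTTGCC, searched on both strands, lay in the windows of 22 of the 39 genes (56.4%) and of 14.1% of all 27025 genes with a window. Of its 27 matches, 18 began within the 150 bases before the start. An X-box pattern with both half-sites, GTTNCC followed by a pair of free bases and GGNAAC, which can contain a GTTGCC, lay in 1 of the 39 windows (2.56%), that of Pifo, and in 0.529% of all genes. X-boxes with another spacing or other letters were not searched, so these shares count that pattern only. The forkhead motif GTAAACA lay in 3 of 39 (7.69%), those of Ak7, Cfap43 and Sntn, and in 4.05% of all genes. A match describes the letters and is not a bound site. The window of Pifo (chr3:106001448-106001747, minus strand) is shown with its match in capitals, because it was the only match to the pattern with both half-sites.
Pifo: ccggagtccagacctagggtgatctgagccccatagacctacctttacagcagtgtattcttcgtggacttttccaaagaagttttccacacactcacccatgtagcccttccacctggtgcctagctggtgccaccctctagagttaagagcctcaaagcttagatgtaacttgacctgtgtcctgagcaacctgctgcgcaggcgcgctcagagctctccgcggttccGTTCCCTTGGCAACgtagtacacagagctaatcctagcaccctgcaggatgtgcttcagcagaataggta
Stretches of 30 bases are shown next for the genes that passed the test in at least 1 comparison below and that held a half-site (chosen after their values were seen). Capitals mark the half-site, read as GTTGCC or, on the other strand, as GGCAAC.
Drc1: ctgctttcccttGGCAACggcttgttccta
Ccdc113: ttcagttgtctaGGCAACgcgcctcagggt
Dynlrb2: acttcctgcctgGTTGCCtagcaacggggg
Ccdc153: ctgagttttccaGTTGCCtggacaacgtgc
Cdhr3: ggtttcctgcctGGCAACaaagtcaggagg
Sntn: tgtcattattcaGTTGCCatggaatgaatg
Cfap44: ggacgactctgtGGCAACacctcagtttag
Cfap44: ggacgttgctatGGCAACcgcagtaaacgg
The stretches lay on GRCm38 at Drc1 chr5:30281370-30281399 (plus strand), Ccdc113 chr8:95534082-95534111 (plus strand), Dynlrb2 chr8:116504952-116504981 (plus strand), Ccdc153 chr9:44240513-44240542 (plus strand), Cdhr3 chr12:33092864-33092893 (minus strand), Sntn chr14:13670798-13670827 (plus strand), Cfap44 chr16:44394658-44394687 (plus strand), Cfap44 chr16:44394768-44394797 (plus strand). The half-site began 129 and 19 bases before the start in Cfap44, 51 before it in Dynlrb2, 152 in Ccdc153 and 6 in Ccdc113.

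**Figure D2:**
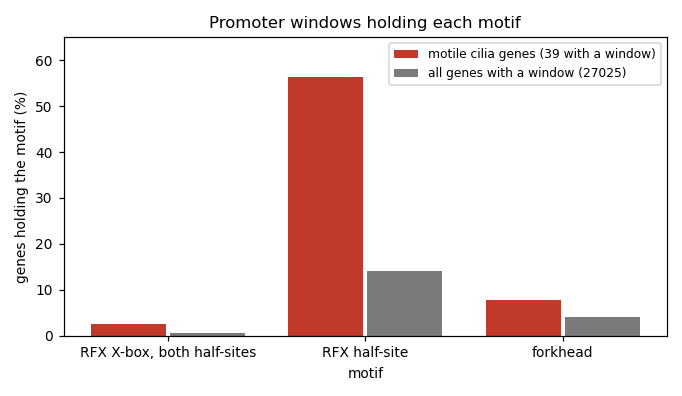
Share of genes (vertical axis, %) whose promoter window holds each motif, for the 39 motile cilia genes with a window (red) and for all 27025 genes with one (grey). The half-site bars stand at 56.4% and 14.1%, and the other 2 motifs stay under 8% in both sets.

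In the outer dynein arm, which supplies most of the beat's power, the heavy chain Dnah9 stood at 1.28 and 1.34 FPKM in WT-TAC, against 0 and 0 in WT-Sham, 0.0131 and 0 in Fat1-Sham and 0 and 0 in Fat1-TAC. Its level in WT-TAC was at least 31.8-fold above WT-Sham and at least 34.5-fold above Fat1-TAC, both of which were at 0 and were set to 3 fragments per library. Dnah5, the other main heavy chain of the arm, had the most fragments of the heavy chains, 130 and 287 in WT-TAC, against 0 and 3 in WT-Sham and none in Fat1-TAC. At the length of 15630 bases from which these fragments were recovered, found by search and not annotated, they came to only 0.419 and 1.02 FPKM. The WT-TAC over WT-Sham ratio of Dnah5 was 130.1-fold (95% counting interval 44.2 to 634). Dnai2, an intermediate chain, stood at 0.933 and 1.82 FPKM in WT-TAC, against 0.307 and 0.308 in WT-Sham, 0.184 and 0.0556 in Fat1-Sham and 0.0582 and 0.12 in Fat1-TAC. Ccdc114, which docks the arm on the doublet, stood at 0.915 and 0.929 FPKM in WT-Sham, 1.99 and 2.51 in WT-TAC, 0.475 and 0.663 in Fat1-Sham, and 0.663 and 1.18 in Fat1-TAC. Dnai1, the other intermediate chain, did not follow, with 1.71 and 1.24 FPKM in WT-Sham, 1.75 and 1.97 in WT-TAC, 1.57 and 1.08 in Fat1-Sham, and 1.21 and 1.95 in Fat1-TAC. Its groups overlapped, and its exons overlap those of Enho on the opposite strand. Dnah11 and Armc4, whose product anchors the arms, reached 0.187 and 0.404 and 0.203 and 0.512 FPKM in WT-TAC.

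The 7 heavy chains of the inner arms, which shape the bend, were all above the 6 other libraries in both WT-TAC libraries, at levels of 0.0940 to 1.30 FPKM. Dnah6 had 114 and 211 fragments in WT-TAC and 15 and 8 in Fat1-TAC, and Dnah3 had 71 and 148 and 8 and 5. Dnah10 reached 0.505 and 1.3 FPKM in WT-TAC and 0.00786 to 0.0657 elsewhere. Dnah12 reached 0.36 and 0.812 and Dnah2 0.342 and 0.754, while Dnah1 and Dnah7a stayed at or under 0.164. Dnah2 kept more than 3 fragments in every library, and Dnah7a is uncertain because reads from its near copies Dnah7b and Dnah7c can be shared with it. None of the 7 reached 1 FPKM in 2 libraries, so none was tested at the filter used below.

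Among the genes of the radial spokes, whose heads touch the central pair, Rsph1 stood at 0.425 and 0.567 FPKM in WT-Sham, 2.38 and 3.97 in WT-TAC, 0.58 and 0.395 in Fat1-Sham, and 0.46 and 0.426 in Fat1-TAC. Rsph9, another spoke head gene, stood at 1.14 and 0.901 FPKM in WT-Sham, 2.37 and 3.85 in WT-TAC, 1.41 and 0.827 in Fat1-Sham, and 0.945 and 2.03 in Fat1-TAC, with the higher Fat1-TAC library close to the lower WT-TAC one. Rsph4a, the third spoke head gene, was at 0.401 and 1.34 FPKM in WT-TAC on 29 and 88 fragments and on at most 1 fragment elsewhere. Spag6l and Spag16 belong to the central apparatus. Spag6l stood at 0.905 and 2.25 FPKM in WT-TAC, against 0 and 0 in WT-Sham, 0.101 and 0 in Fat1-Sham and 0 and 0 in Fat1-TAC, although its near copy Spag6 can share reads with it. Spag16 stood at 0.85 and 1.66 FPKM in WT-TAC, against 0 and 0 in WT-Sham, 0.0316 and 0 in Fat1-Sham and 0 and 0 in Fat1-TAC, at least 12.6-fold above WT-Sham. Spag17, Hydin and Cfap54, large proteins of the same structure, reached 0.205 and 0.745, 0.527 and 0.828 and 0.594 and 1.62 FPKM in WT-TAC, and Hydin also had 39 fragments in WT-Sham2.

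The molecular rulers and nexin links were the only role of which all genes, 7 of 7, passed the filter used below. Ccdc153, a part of the nexin link, stood at 12.9 and 9.83 FPKM in WT-TAC, against 0 and 0 in WT-Sham, 0 and 0.149 in Fat1-Sham and 0 and 0 in Fat1-TAC. That was 11.4 ± 2.16 FPKM in WT-TAC (mean ± SD, n = 2), at least 44.1-fold above WT-Sham and at least 47.8-fold above Fat1-TAC. Drc1, a core subunit of that link, stood at 2.49 and 2.51 FPKM in WT-TAC, against 0.0776 and 0 in WT-Sham, 0.0618 and 0 in Fat1-Sham and 0 and 0.0606 in Fat1-TAC, with 45 and 41 fragments in WT-TAC and at most 1 elsewhere. Ccdc39 and Ccdc40 form the ruler that spaces the arms and spokes. Ccdc39 stood at 0.705 and 1.36 FPKM in WT-Sham, 4.81 and 3.25 in WT-TAC, 1.07 and 0.74 in Fat1-Sham, and 1.04 and 1.57 in Fat1-TAC. Ccdc40 stood at 0 and 0.124 FPKM in WT-Sham, 1.73 and 2.09 in WT-TAC, 0.0742 and 0.0675 in Fat1-Sham, and 0.106 and 0.145 in Fat1-TAC. The ruler partners thus differed outside WT-TAC, Ccdc39 being present in every heart and Ccdc40 at or near 0, and exons of Ccdc39 overlap those of Ttc14 on the opposite strand. Ccdc113, which sits near the nexin link, stood at 1.1 and 1.25 FPKM in WT-TAC, against 0 and 0 in WT-Sham, 0 and 0 in Fat1-Sham and 0 and 0 in Fat1-TAC. Cfap44, a tether of an inner arm, stood at 1.38 and 2.63 FPKM in WT-TAC, against 0 and 0 in WT-Sham, 0.0211 and 0.0192 in Fat1-Sham and 0 and 0.0207 in Fat1-TAC. Its partner in the tether, Cfap43, was in every heart, with 6.73 and 7.01 FPKM in WT-Sham, 17.1 and 12 in WT-TAC, 8.62 and 8.82 in Fat1-Sham, and 7.3 and 8.37 in Fat1-TAC, and its exons overlap those of Itprip on the same strand.

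Of the tektins and other microtubule proteins, Tppp3, a tubulin-binding protein, was the most abundant gene of the list in every heart. It stood at 23.1 and 31.2 FPKM in WT-Sham, 38.3 and 43.4 in WT-TAC, 20.7 and 18.9 in Fat1-Sham, and 14.9 and 15.2 in Fat1-TAC, so that both Fat1-TAC libraries were the lowest of the 8. Cfap126, a protein inside the doublet wall, stood at 1.85 and 2.25 FPKM in WT-Sham, 3.34 and 5.15 in WT-TAC, 2.17 and 1.97 in Fat1-Sham, and 1.9 and 1.78 in Fat1-TAC. Cfap52, another protein inside the doublet, stood at 0.736 and 1.86 FPKM in WT-TAC, against 0 and 0.202 in WT-Sham, 0.0966 and 0.0878 in Fat1-Sham and 0.0919 and 0.142 in Fat1-TAC. Pifo, whose promoter is shown above, stood at 0.652 and 2.4 FPKM in WT-TAC, against 0 and 0 in WT-Sham, 0 and 0.0551 in Fat1-Sham and 0 and 0 in Fat1-TAC. The 3 tektins, which form filaments along the doublet, reached 0.605 and 1.3 (Tekt1), 0.89 and 1.04 (Tekt2) and 0.625 and 0.763 FPKM (Tekt4) in WT-TAC. Tekt2 and Tekt4 also reached 0.629 and 0.431 FPKM outside it.

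Zmynd10, Dnaaf1 and Lrrc6 help to assemble dynein arms in the cytoplasm. Zmynd10 stood at 0.0751 and 0 FPKM in WT-Sham, 1.77 and 1.18 in WT-TAC, 0.419 and 0.0544 in Fat1-Sham, and 0.171 and 0.0586 in Fat1-TAC. Dnaaf1 was at 0.393 and 0.434 FPKM in WT-TAC on 22 fragments in each library and on at most 1 fragment elsewhere, and Lrrc6 was at 0.194 and 0.214 on 8 fragments each. The median of the 3 genes was 0.393 and 0.434 FPKM in WT-TAC.

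The last 5 genes mark ciliated cells more broadly. Dynlrb2, a dynein light chain of ciliated cells, stood at 2.32 and 5.66 FPKM in WT-TAC, against 0 and 0.0905 in WT-Sham, 0.108 and 0 in Fat1-Sham and 0 and 0 in Fat1-TAC. Cdhr3, a cadherin relative on ciliated airway cells, stood at 0.65 and 0.401 FPKM in WT-Sham, 2.5 and 5.8 in WT-TAC, 0.239 and 0.254 in Fat1-Sham, and 0.114 and 0.39 in Fat1-TAC. Ak7, an adenylate kinase of cilia, stood at 1.27 and 3.08 FPKM in WT-TAC, against 0 and 0.0296 in WT-Sham, 0.0707 and 0.0322 in Fat1-Sham and 0 and 0.0347 in Fat1-TAC. Sntn, which encodes sentan of the ciliary tip, stood at 1.18 and 1.39 FPKM in WT-TAC, against 0 and 0 in WT-Sham, 0.0907 and 0 in Fat1-Sham and 0 and 0 in Fat1-TAC. All 4 had both WT-TAC libraries above the rest, as had Cdhr4, with 0.885 and 0.676 FPKM on 13 and 9 fragments.

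**Figure D3:**
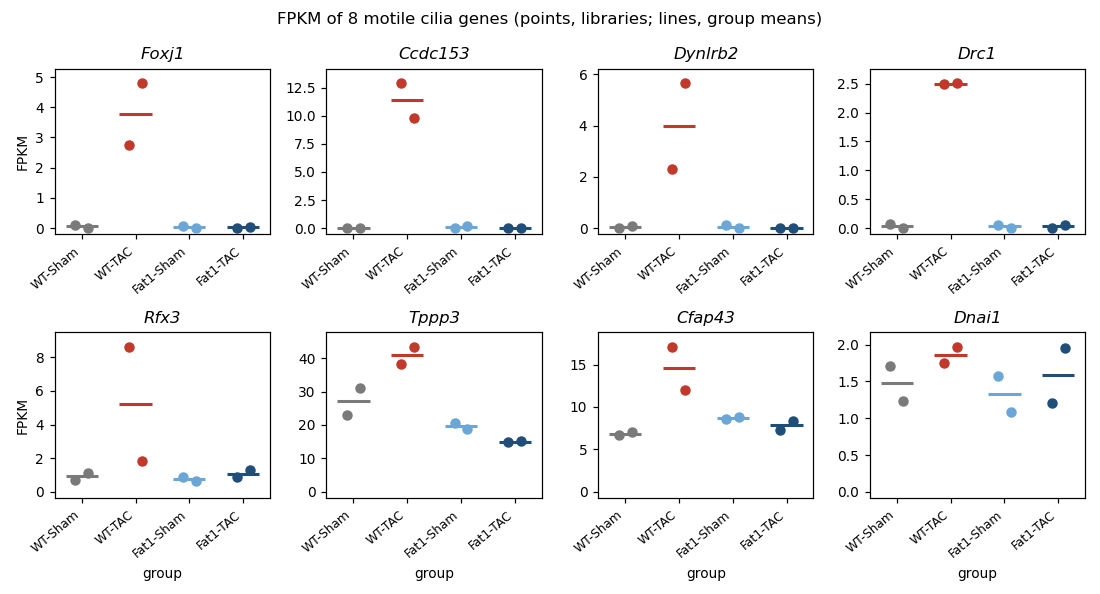
FPKM (vertical axes, each from 0) of 8 motile cilia genes in the 4 groups, with a point for each library and a line at the group mean of 2 libraries. Foxj1, Ccdc153, Dynlrb2 and Drc1 stay at or under 0.149 FPKM outside WT-TAC, Rfx3 is set apart by WT-TAC1, Tppp3 and Cfap43 are present in every heart, and Dnai1 overlaps between groups.

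Pressure overload in the wild type was compared by limma across all genes that reached 1 FPKM in at least 2 libraries, which kept 22 of the 48. A call needed a p under 0.1 after Benjamini-Hochberg adjustment together with more than a 1.5-fold change either way. Of the 22, 10 rose and none fell in WT-TAC against WT-Sham (without adjustment, p was under 0.05 for 21 in the upward and 0 in the downward direction), where 0.921% of all 14442 genes were called higher and 0.0138% lower. The 10 were Foxj1, Dnah9, Rsph1, Ccdc40, Drc1, Ccdc113, Ccdc153, Cfap44, Sntn and Dynlrb2, 5 of them rulers and nexin links. On the log2(FPKM + 1) scale, which understates changes of low genes, Ccdc153 differed by 3.62 ± 0.23 (limma estimate ± SE, adjusted p = 0.00882), Dynlrb2 by 2.17 ± 0.34 (0.0602), Foxj1 by 2.13 ± 0.26 (0.0314) and Drc1 by 1.75 ± 0.20 (0.0288). Ak7 just missed at 1.58 ± 0.30 (adjusted p = 0.101), and Rfx3 did not pass, with 1.45 ± 0.52 (adjusted p = 0.176). Of the 22 genes, 14 needed WT-TAC to pass the filter, and these held all 10 calls. Of the 14, 13 stayed under 1 FPKM in every library outside WT-TAC and so had to be higher there. The other, Ccdc114, also reached 1.18 FPKM in Fat1-TAC2 and was not called. None of the 8 that passed on the other libraries alone was called by limma or limma-voom (Rfx2, Rfx3, Dnai1, Rsph9, Ccdc39, Cfap43, Cfap126 and Tppp3), although 7 of them had an unadjusted p under 0.05. The count fell to 1 with the median of ratios, with quantile normalization or with a pseudocount of 0.1, to 0 without WT-Sham1 or WT-Sham2, and to 3 without Fat1-Sham1 or Fat1-Sham2. It was 12 without WT-TAC1, the library with the thymocyte genes (0.99% of all genes called higher), and 19 without WT-TAC2, when 45% of all genes were called higher.

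The fat-1 transgene under pressure overload was compared as Fat1-TAC against WT-TAC, which shares the WT-TAC libraries with the comparison above. Of the 22 genes, 13 fell and none rose (without adjustment, p was under 0.05 for 20 in the downward and 0 in the upward direction), where 1.39% of all genes were called lower and 0.0346% higher. They were the same 10 genes and Ak7, Cdhr3 and Tppp3. Ccdc153 differed by -3.62 ± 0.23 (limma, adjusted p = 0.00651), Dynlrb2 by -2.23 ± 0.34 (0.0554), Foxj1 by -2.18 ± 0.26 (0.0309), Cdhr3 by -1.97 ± 0.34 (0.0764) and Drc1 by -1.77 ± 0.20 (0.0254). Tppp3 differed by -1.38 ± 0.18 (adjusted p = 0.0398), from 40.8 ± 3.61 to 15 ± 0.203 FPKM (mean ± SD, n = 2 each), and was the only call among the 8 genes that passed the filter without WT-TAC. Its difference between WT-TAC and WT-Sham was 0.58 ± 0.18 (adjusted p = 0.175). Leaving out WT-TAC1 gave 14 calls (1.29% of all genes lower) and leaving out WT-TAC2 gave 20 (46.8% of all genes lower), and the count was 4 without WT-Sham1, WT-Sham2, Fat1-Sham1 or Fat1-Sham2, 3 without Fat1-TAC2 and 1 without Fat1-TAC1. It was 1 with the median of ratios or quantile normalization, where Ccdc153 alone passed.

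**Figure D4:**
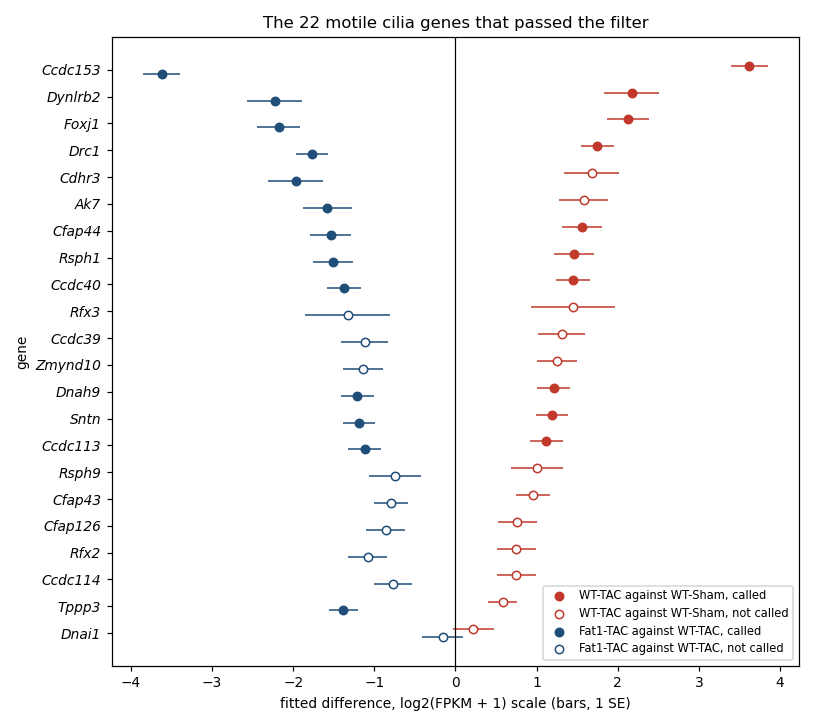
Fitted differences (horizontal axis, log2(FPKM + 1) scale, bars 1 SE) of the 22 motile cilia genes that passed the filter, for WT-TAC against WT-Sham (red) and Fat1-TAC against WT-TAC (blue), filled where called. Every red estimate lies above 0 and every blue one below, with 10 and 13 filled points, and those of Dnai1 (0.22 and -0.16) take the opposite signs with the median of ratios or quantile scaling.

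Pressure overload within fat-1 mice left no call on the list. In Fat1-TAC against Fat1-Sham, none of the 22 genes passed in limma, none had an unadjusted p under 0.05, and 1 of all 14442 genes was called (0.00692%). With limma-voom on recovered fragments none of 45 passed either, with 1 unadjusted p under 0.05. Over the 48 genes, both Fat1-TAC libraries lay above both Fat1-Sham libraries for 6 (22.7% of all genes) and below them for 5 (15.4%). The latter order together with both WT-TAC libraries above both WT-Sham libraries also held for 5 (5.59% of all genes). After sham surgery, Fat1-Sham against WT-Sham likewise gave no call among the 22 genes in limma, no unadjusted p under 0.05 among them, and no call among 45 in limma-voom, with 1 unadjusted p under 0.05. None of all 14442 genes was called (0%), although p without adjustment was under 0.05 for 46 in the upward and 134 in the downward direction, nor any of 16765 by limma-voom. Both Fat1-Sham libraries lay above both WT-Sham libraries for 6 of the 48 genes (12.3% of all genes) and below them for 6 (15.2%).

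The interaction of genotype and surgery tests whether the response to pressure overload itself differed between WT and fat-1 mice. Of the 22 genes, 1 passed in limma, Ccdc153, with -3.72 ± 0.32 on the log2(FPKM + 1) scale (adjusted p = 0.0533), where 0.0623% of all genes were called lower, and 18 of the 22 had an unadjusted p under 0.05. Limma-voom called none of 45 (29 at an unadjusted p under 0.05). All 22 estimates lay below 0 in the deposited scaling, Foxj1 at -2.14 ± 0.37 (adjusted p = 0.27), Drc1 at -1.75 ± 0.29 (0.224) and Dnai1 at -0.07 ± 0.36 (0.918) among them. The call on Ccdc153 was lost without any 1 of the Sham or Fat1-TAC libraries, and with quantile normalization, limma-voom, a pseudocount of 0.1 or the replicate number as a block. Ccdc153 had passed the filter only through WT-TAC. Without WT-TAC1, 7 genes were called (0.471% of all genes lower), and without WT-TAC2, 19 (40.1%).

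The 26 genes under the filter, the dynein heavy chains other than Dnah9 among them, were reached by the fits without it. With no filter, 16 of the 48 were called higher in WT-TAC against WT-Sham (1.1% of 25929 genes) and 0 lower (0.027%), and 21 were called lower in Fat1-TAC against WT-TAC (1.32%) and 0 higher (0.0309%). The interaction was called for 6 below 0 (0.243% of all genes) and for none above it (0.027%). No gene of the list reached an unadjusted p under 0.05 in any of these 3 opposite directions. The median of the 48 was 0.86 and -0.87 on the log2(FPKM + 1) scale, beside 0.22 and -0.21 for all genes. As log2 ratios of group means, with a group at 0 set to 3 fragments per library, the medians were 3.05 and -3.59, beside 0.53 and -0.55. On recovered fragments, limma-voom tested 45 of the 48 genes. It called only Dnah9 and Ccdc153 higher in WT-TAC (0.0358% of 16765 genes) and 24 genes lower in Fat1-TAC (1.73%), with none higher there (0.0298%). Of the 24, only Tppp3, Rfx2, Rsph1, Dnah6 and Cdhr3 reached 10 fragments in 2 libraries outside WT-TAC. The others, Dnah9 and Ccdc153 among them, passed that filter only through WT-TAC and so had to be higher there. The 24 included Dnah5 (-8.56 ± 1.40, log2 fold change ± SE, adjusted p = 0.0816), Dnah6 (-3.72 ± 0.63, 0.0816), Dnah3 (-3.87 ± 0.73, 0.0897), Spag16 (-6.30 ± 0.93, 0.0816) and Dnaaf1 (-4.67 ± 0.76, 0.0816). For Dnah5 and Spag16, with no fragment in Fat1-TAC, the fitted value depends on the prior count of voom, and the lower bounds of the fold were 69.2 and 13.7.

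The WT-TAC libraries did not hold the genes in equal amounts. WT-TAC2 was above WT-TAC1 for 40 of the 48 genes, with a median log2 ratio of 0.72, while the median over all genes above 0 in both was -0.37. This direction was not particular to the list, since all 9 cardiomyocyte genes were higher in WT-TAC2, with a median log2 ratio of 0.9. Of the 35 genes of transport in primary cilia, 14 were higher in WT-TAC2, with a median of -0.2. The ratio of WT-TAC2 to WT-TAC1 was 1.01 for Drc1, 1.74 for Foxj1, 2.44 for Dynlrb2, 2.44 for Dnah5 and 3.68 for Pifo. The 8 genes with the higher value in WT-TAC1 were Mcidas, Rfx2, Rfx3, Ccdc39, Ccdc153, Cfap43, Zmynd10 and Cdhr4, and 4 of these (Rfx2, Rfx3, Ccdc39 and Cfap43) were among the genes present in every heart.

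Markers of other epithelial cells were also higher in WT-TAC. The 9 club cell genes, which mark the secretory neighbours of ciliated airway cells, summed in WT-TAC to 1858 and 4616 FPKM. Their sums were 41.1 and 63.8 FPKM in WT-Sham, 86.9 and 28.9 in Fat1-Sham and 31.2 and 33.7 in Fat1-TAC. Of these 9, 8 were called higher in WT-TAC against WT-Sham and 8 lower in Fat1-TAC against WT-TAC, beside 0.921% and 1.39% of all genes. Scgb1a1, the main secretoglobin of club cells, stood at 0.297 and 0.099 FPKM in WT-Sham, 707 and 1555 in WT-TAC, 33.1 and 0.107 in Fat1-Sham, and 0.45 and 0 in Fat1-TAC. Bpifa1, a secreted airway protein, stood at 0.436 and 0.0582 FPKM in WT-Sham, 599.6 and 1968 in WT-TAC, 10.6 and 0.0631 in Fat1-Sham, and 0.0661 and 0 in Fat1-TAC. The largest folds beside theirs were those of Scgb3a2, Cyp2f2 and Scgb3a1, at 92.9 and 219, 59.5 and 166 and 60.5 and 120.1 FPKM in WT-TAC. Scgb3a2 and Reg3g were at 0 in all WT-Sham and Fat1-TAC libraries, so WT-TAC could only be higher than these groups. Scgb1a1 and Bpifa1 reached 1 FPKM outside WT-TAC only in Fat1-Sham1, so they too needed WT-TAC to pass the filter. All 9 genes were higher in WT-TAC2 than in WT-TAC1, with a median log2 ratio of 1.23. The 8 general epithelial genes summed to 232 and 86.2 FPKM in WT-TAC and 5.46 to 14.4 elsewhere, with Krt8 at 82.6 and 23 and Krt18 at 97.6 and 16.5 in WT-TAC. Of the 8, 5 were called higher (Krt8, Cdh1, Cldn3, Cldn7 and Elf3) and 5 lower in Fat1-TAC (Krt8, Krt18, Cdh1, Cldn7 and Elf3), beside 0.921% and 1.39% of all genes. Cdh1 stood at 11.9 and 4.58, Cldn3 at 2.52 and 6.63, Cldn7 at 2.88 and 3.58 and Elf3 at 1.57 and 2.29 FPKM in WT-TAC. The 4 basal cell genes summed to 79.6 and 22 and 0.338 to 1.24. Of these, Krt15, the only one of 3 tested that was called in either comparison, was at 6.46 and 17.2 FPKM in WT-TAC and at 0 in the 6 others. It therefore passed the filter only through WT-TAC and had to be higher there. Which of the other calls in this paragraph and the next needed WT-TAC to pass was not counted. Krt5 at 47.3 and 2.47 and Krt14 at 19.4 and 1.74 reached the highest single values, in WT-TAC1. The median log2 ratio of WT-TAC2 to WT-TAC1 was -0.54 for the epithelial and -3.42 for the basal genes, against 0.72 for the cilia genes. The part of such cells in the values of the cilia genes was not tested.

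Lists of other tissues were measured as well. The 9 alveolar genes summed to 106 and 16.4 FPKM in WT-TAC, 38.1 and 0.751 in Fat1-Sham and 0.52 to 2.51 in the other 4 libraries, with Sftpc at 74.7 and 0.138 in WT-TAC and 29.9 and 0.127 in Fat1-Sham, and Ager at 8.51 and 0.225 and 2.05 and 0.104. Of the 6 alveolar genes tested, 2 were called higher in WT-TAC and lower in Fat1-TAC, beside 0.921% and 1.39% of all genes. They were Sftpd at 3.14 and 3.43 FPKM in WT-TAC (2.10 and -2.10 on the log2(FPKM + 1) scale, limma adjusted p = 0.0351 and 0.0368) and Aqp5 at 4.13 and 7 (2.53 and -2.11, 0.0301 and 0.0488), both present in both WT-TAC libraries. Both WT-TAC libraries lay above the 6 others for 4 of the 9 alveolar genes (33.3% of all genes). The 5 thymocyte genes summed to 891 and 0.537 FPKM in WT-TAC and 0.0952 to 0.346 elsewhere, so they marked 1 of the 2 libraries in which the cilia genes were high. The 5 cartilage genes summed to 6.92 and 9.71 and 1.67 to 4.02, with Cnmd at 3.88 and 4.03, Acan at 1.49 and 2.22 and Col2a1 at 0.945 and 2.61 in WT-TAC. Both WT-TAC libraries lay above the others for 4 of these 5 (33.3% of all genes), and all 5 were higher in WT-TAC2 (median log2 ratio 0.57). Of 2 tested, Acan was called in both comparisons (1.32 and -1.42, limma adjusted p = 0.0808 and 0.0653), beside 0.921% and 1.39% of all genes. The 4 mesothelial genes summed to 49.7 and 59 and 18.3 to 41.1, with Msln at 15.4 and 26.3 and Upk3b at 21.4 and 18.9. Both WT-TAC libraries lay above the 6 others for 3 of these 4 (33.3% of all genes). None of the 4 was called higher in WT-TAC against WT-Sham. Only Msln was called lower in Fat1-TAC against WT-TAC (-1.53, limma adjusted p = 0.0929), beside 1.39% of all genes. The cardiomyocyte genes Myh6 and Myl2 were at 7406 and 13333 and at 5244 and 10107 FPKM in WT-TAC. Their part in the values of the cilia genes was not tested.

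**Figure D5:**
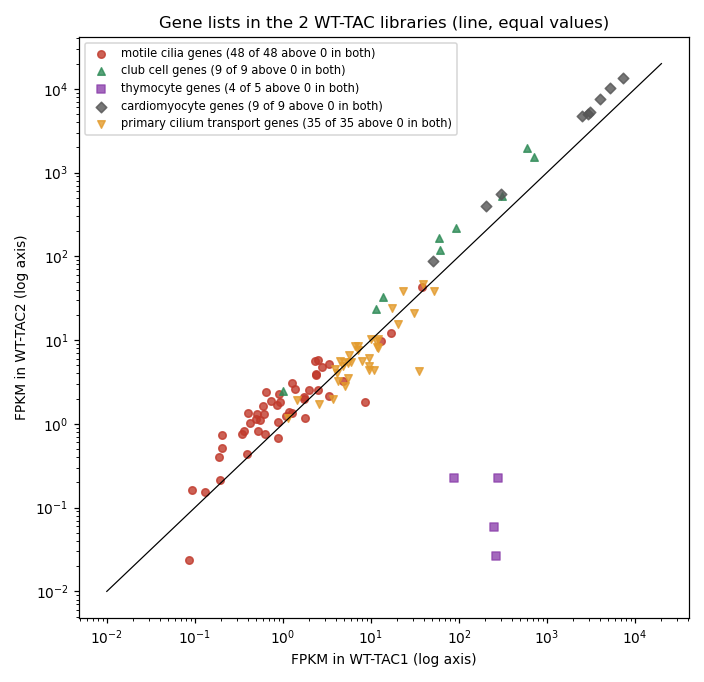
FPKM in WT-TAC1 (horizontal, log axis) against WT-TAC2 (vertical, log axis) for the 48 motile cilia genes and 4 other lists, the line marking equal values and genes at 0 in either library left out. Of the cilia genes, 40 of 48 lie above the line, as do all 9 club cell and all 9 cardiomyocyte genes, while the thymocyte genes lie far below it.

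Other genes of motile cilia, not on the list, showed the same order. Of 70 such genes, 68 were in the table, and both WT-TAC libraries lay above the 6 others for 57 of them (33.3% of all genes). In the limma fit 31 were tested, with medians of 0.78 and -0.82 on the log2(FPKM + 1) scale. Of these, 4 rose in WT-TAC against WT-Sham (Cfap206, Lrrc23, Tmem212 and Sec14l3), beside 0.921% of all genes. In Fat1-TAC against WT-TAC 6 fell (these 4, Fam183b and 1110017D15Rik), beside 1.39% of all genes. Cfap206, Lrrc23, Tmem212 and Sec14l3 stayed under 1 FPKM in every library outside WT-TAC. They therefore passed the filter only through WT-TAC and had to be higher there. Sec14l3, a gene of ciliated airway cells, stood at 36 and 84.3 FPKM in WT-TAC, against 0 and 0 in WT-Sham, 0.949 and 0 in Fat1-Sham and 0 and 0 in Fat1-TAC, above every listed gene but Tppp3 in WT-TAC1 and above all of them in WT-TAC2. Lrrc23, a radial spoke gene, stood at 3.2 and 5.5 FPKM in WT-TAC, against 0.498 and 0.388 in WT-Sham, 0.397 and 0.662 in Fat1-Sham and 0.441 and 0.778 in Fat1-TAC, and Tmem212 at 2.39 and 5.21 FPKM in WT-TAC, against 0.0986 and 0.197 in WT-Sham, 0.0785 and 0 in Fat1-Sham and 0 and 0 in Fat1-TAC. Cfap206, which serves a spoke and an inner arm, stood at 1.52 and 2.24 FPKM in WT-TAC, against 0 and 0.043 in WT-Sham, 0 and 0 in Fat1-Sham and 0 and 0 in Fat1-TAC.

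The 13 genes of the multiciliation programme upstream of the axoneme, which make the many basal bodies, gave no call among the 5 tested by limma, of which 1 had an unadjusted p under 0.05 in each comparison with WT-TAC, or among 9 tested by limma-voom. Both WT-TAC libraries lay above the others for 7 of the 13 (33.3% of all genes). Only 3 of the 13 were higher in WT-TAC2 than in WT-TAC1. The 13 summed to 259 and 56.4 FPKM in WT-TAC and 47.6 to 53.9 elsewhere. Most of the excess in WT-TAC1 was Myb, which is also a thymocyte gene, at 129 and 0.521 FPKM. Gmnc, which encodes the multicilin relative GEMC1, was at 0.0741 and 0.123 and Ccno, a cyclin of basal body making, at 0.472 and 0.312.

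The 35 genes of transport in primary cilia, which nearly every cell uses, were all tested and none was called in either direction in limma or limma-voom, with 8 and 13 at an unadjusted p under 0.05 in the 2 comparisons. Their medians were 0.37 for WT-TAC against WT-Sham and -0.52 for Fat1-TAC against WT-TAC beside 0.39 and -0.40 for all genes. Their sum was 406 and 343 FPKM in WT-TAC and 261 to 303 elsewhere. Both WT-TAC libraries lay above the others for 23 of 35 (33.3% of all genes). Close relatives of listed genes that serve other cells were measured as well. Dynlrb1, the widely used relative of Dynlrb2, stood at 142 and 154 FPKM in WT-Sham, 138 and 129 in WT-TAC, 135 and 143 in Fat1-Sham, and 144 and 137 in Fat1-TAC, and Tppp, the relative of Tppp3, at 9.71 and 13.7 FPKM in WT-Sham, 12.4 and 15.6 in WT-TAC, 11.3 and 8.69 in Fat1-Sham, and 6.97 and 9.84 in Fat1-TAC. Rfx1 stood at 4.18 and 4.67 FPKM in WT-Sham, 14.2 and 5.76 in WT-TAC, 4.76 and 3.97 in Fat1-Sham, and 3.87 and 5.44 in Fat1-TAC so that WT-TAC1 was far above the rest and WT-TAC2 just above them. Tekt3 and Spag6 stayed at or under 0.202 FPKM in every library. Of 12 sperm genes, 6 were in the table and none was tested, and their sum of 6.9 and 0.504 FPKM in WT-TAC was mostly Dnah8 at 4.55 in WT-TAC1.

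By position, the 48 genes lay on 18 chromosomes. Foxj1 lies at chr11:116330704-116335399, Ccdc153 at chr9:44240676-44247306, Drc1 at chr5:30281388-30366695, Dynlrb2 at chr8:116504974-116515915 and Tppp3 at chr8:105467493-105471526 (GENCODE M21, GRCm38, each a protein-coding gene). Exons of 18 of the 48 genes overlap those of another annotated gene, and whether the counting used strand was not given in the sources used here, so reads of the pair could be mixed. Foxj1, Ccdc153, Drc1, Dynlrb2, Ccdc113, Cfap44, Sntn, Rsph1, Ccdc40, Ak7, Cdhr3 and Tppp3 had no such overlap, and of the genes called by limma after the filter only Dnah9 had one, with the opposite-strand gene Gm12296, while Dnah6, Dnah3 and Dnaaf1 of the limma-voom calls named above had one each.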

How the data were processed

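Heart mRNA had been sequenced in 8 libraries, 2 for each genotype (WT or fat-1) and surgery (sham or TAC). The authors deposited FPKM values for 25929 genes, named by Ensembl identifiers. The submitters' processing notes name HISAT2, mm10 and GRCm38 without versions, and the counting program was not given in the sources used here. The members, gene lists, motifs and tests were chosen with earlier results of these data known.

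Whole fragments were recovered for 99.9% of genes by finding a length at which all values of a gene were whole numbers (tolerance 0.002, checked on simulated data), and 25 genes gave none. An annotated length served for 43.3% of genes. For 14683 genes, most members among them, another whole length was found by search, and their fragments, floors and lower bounds depend on it. Between 99.59% and 99.78% of fragments lay on listed genes. The recovered fragments served for the floor of 3 fragments and for limma-voom (at least 10 fragments in 2 libraries).

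Values were tested as log2(FPKM + 1) for genes that reached 1 FPKM in 2 libraries. Limma 3.58.1 in R 4.3.3 (lmFit, eBayes with a trend) was fitted to all 8 libraries with 4 group means and tested on simulated data. Calls needed a Benjamini-Hochberg adjusted p under 0.1 over all genes and a fold change over 1.5 or under 1/1.5. Any exact permutation test of 2 against 2 libraries cannot go below p = 0.33 and was not run. Named with values in every library are the members past the filter, the 4 regulators and the 5 other members of highest FPKM. Of the other lists, named genes are those called (up to 5 a comparison), the paralogs and the 2 with the highest FPKM in any library from each cell type list, and Myb, Gmnc, Ccno and Dnah8 were chosen after their values were seen. The alternatives were other pseudocounts, filters, scalings and designs and leaving out each library, with the set of tested genes kept for the last 3 kinds.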

Additional observations from a re-analysis of the deposited data

Results flagged for a closer look

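Ccdc153, a nexin link gene, passed the test of a difference between the genotypes' responses, with an interaction of -3.72 ± 0.32 (log2(FPKM + 1) scale, limma adjusted p = 0.0533). It had passed the filter only through WT-TAC, where it was high, so an interaction below 0 had to follow, and the call was lost with quantile normalization, limma-voom, a pseudocount of 0.1, the replicate block or any Sham or Fat1-TAC library left out. WT-TAC held 12.9 and 9.83 FPKM, and the only fragments outside WT-TAC were 2 in Fat1-Sham2.

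For 4 genes present in every heart, both WT-TAC libraries lay above both WT-Sham libraries while both Fat1-TAC libraries lay below both Fat1-Sham libraries. The interaction was -1.02 for Rfx2, -1.1 for Cfap43, -0.87 for Cfap126 and -0.96 for Tppp3, and none of them passed (limma adjusted p = 0.495 for each). They were picked for this order, which also held for Cdhr4 (not tested), and both Fat1-TAC libraries lay below both Fat1-Sham libraries for 5 of the 48 genes, against 15.4% of all genes. Both orders together held for the same 5 and for 5.59% of all genes. Tppp3 stood at 20.7 and 18.9 FPKM in Fat1-Sham and 14.9 and 15.2 in Fat1-TAC, and none of the 4 passed in that comparison.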

How the results depend on the processing

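The members called in WT-TAC against WT-Sham (10), in Fat1-TAC against WT-TAC (13) and in the interaction (1) depended on the settings, in that order as follows. A pseudocount of 0.1 gave 1, 2 and 0, no filter gave 16, 21 and 6 of 48, and a mean of at least 5 FPKM, which left 2 members, gave 0, 1 and 0. The median of ratios gave 1 and 1 and kept the interaction at 1, and quantile normalization gave 1, 1 and 0. Limma-voom gave 2, 24 and 0 of 45. Fits with only the groups compared gave 3 and 1. Leaving out 1 library gave 0 to 19, 1 to 20 and 0 to 19, and a lone library of a group was assumed to vary like the others. The 2 comparisons without WT-TAC stayed at 0 in every setting.

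The replicate numbers did not pair the libraries, since the deviations of same-numbered libraries correlated at -0.135 to 0.0236, and with the replicate block the counts were 3, 4 and 0. With the numbers of Fat1-Sham crossed in the block, added after seeing the data, they were 3, 11 and 1. Among refits of single members, 89 lost and 13 gained a call for WT-TAC against WT-Sham, 114 and 10 for Fat1-TAC against WT-TAC. Only Dnai1 turned its sign, to -0.08 (median of ratios) and -0.25 (quantile) in the first, and to 0.12 and 0.3 in the second, where leaving out 1 library gave -0.37 to 0.05 (0.05 without Fat1-TAC1). The causes were not tested. Over its alternatives, the adjusted p of Ccdc153 ran from 0.000198 to 0.194 and from 0.000199 to 0.0806. The half-site in place of the X-box pattern with both half-sites raised the share of member promoters from 2.56% to 56.4%. The median levels of the members per group moved by less than the spread between replicates with the median of ratios. Depth limits all members at a few fragments outside WT-TAC.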

Other observations

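Fat1-Sham1 held traces of the same genes. Of the 48 members, 10 were at 0 in it, against 14 to 22 in the other 5 libraries outside WT-TAC. The 21 members with at most 3 fragments in each of these libraries had 20 fragments together in Fat1-Sham1, against 2 to 8 in the other 5 and 858 and 1295 in WT-TAC1 and WT-TAC2. Scgb1a1, a club cell gene, stood at 33.1 FPKM in Fat1-Sham1 and 0.107 in Fat1-Sham2, and Sftpc, an alveolar gene, at 29.9 and 0.127. Sec14l3 stood at 0.949 in Fat1-Sham1 and at 0 in the other 5.

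The genes of motile cilia named next were chosen after their values were seen. They were far higher in WT-TAC1 than in WT-TAC2, unlike most of the list. In these 2 libraries Mns1 stood at 23.6 and 0.583 FPKM, Wdr78 at 28.7 and 1.18, and Cfap74 at 10.2 and 1.31. The primary cilium gene Ift80 stood at 34.8 and 4.29. The thymocyte genes were high in the same library, and their part in these values was not tested.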
